A study of Mus musculus with 8 samples.

Results

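The accessible regions described here were found in cardiac progenitors at day 5 of differentiation (D5), were missing from untreated cells at day 7 (D7), and were found at D7 when GLI1 was induced. Overlapping peaks were merged into regions within each peak list on chromosomes 1 to 19. A region of the D7 GLI1 list was a member when it overlapped a D5 region by at least 1 base and overlapped no D7 control region. These were 2203 of the 42192 regions of the GLI1 list, or 5.22%, and the union of the 3 lists held 69696 regions. The opposite class, D5 regions found in D7 control and missing with GLI1, held 1069 of 37973 control regions, or 2.82%. The members were chosen by presence and absence in the lists, so these shares describe the choice and are not a result about it. Seen among regions that overlapped D5, 12.2% of the GLI1 list lacked a control region and 6.32% of the control list lacked a GLI1 region.

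The cells were cardiac progenitors differentiated from mouse embryonic stem cells of the GLI1-FTA line, strain A2Lox.cre. The assay was ATAC-seq: the transposase Tn5 cuts accessible chromatin and leaves adapters for sequencing in it. The 8 libraries formed 3 groups: untreated D5 control (2 libraries), untreated D7 control (3), and D7 GLI1 overexpression (3), which received doxycycline at 500 ng/ml over the 48 hours between D5 and D7. All groups carried the same line, and only the GLI1 group received doxycycline, so the effect of the drug itself was not separated. For each library 150000 cells were collected and transposed for 30 minutes at 37 C.

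Each group is represented by 1 peak list that pools its libraries, so differences between groups have no replicate check and no p-value is given. The D7 control list was assigned to D7 because it is named as the partner of the doxycycline list and a separate list exists for D5, which is an inference. The D5 list took its folds over a local background, unlike both D7 lists, and its shortest peak was 124 bp against 200 bp in both D7 lists. Folds are therefore read only within a list, except that the lowest fold of each D7 list sets a threshold for the other. Whether folds of the D7 lists share a scale was not tested. Markers were checked by the number of regions nearest to each gene at D5, in D7 control and with GLI1. Among cardiac progenitor markers these were 3, 2 and 1 for Nkx2-5, 6, 4 and 4 for Isl1, 5, 2 and 1 for Tbx5, 11, 7 and 11 for Mef2c, 5, 2 and 2 for Gata4, 8, 6 and 6 for Hand2, and 3 in each list for Mesp1. Markers of other cell types also had regions: Sox1 had 4, 8 and 9, Pax6 6, 4 and 7 and Olig2 2, 1 and 1 (neural), Foxa2 9, 2 and 13 and Sox17 3, 2 and 6 (endoderm), and Kdr 5, 7 and 4, Cdh5 6, 4 and 8 and Tal1 4, 3 and 3 (endothelial). Of these, Isl1, Hand2, Sox1 and Sox17 had 1 member each, Foxa2 2 and Cdh5 3; the part of other cell types in the members was not tested. The induced gene itself, Gli1, at chr10:127329882-127341579, overlapped 3 D5, 4 control and 8 GLI1-list regions, of which 0 were members. Tnnt2, the cardiac troponin T gene, had 0, 1 and 0 regions, and of the pluripotency markers Pou5f1 had 0 in all 3 lists and Nanog 3, 2 and 4.

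GLI1 is a zinc finger transcription factor that acts in Hedgehog signalling, in which a secreted ligand relieves the inhibition of the membrane protein Smoothened by its receptor Patched and so activates GLI proteins. In the embryo, Hedgehog signalling acts on second heart field progenitors, which add cells to the heart tube, and on the ventral neural tube, where it patterns neural progenitors. Accessible chromatin marks promoters and enhancers, and cells close many early elements as they differentiate.

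The share of D5 regions kept differed between the directions near gene starts (values below), so 6 promoters are shown first. Of the starts in the RefSeq table used here, 179 well-separated ones lay inside a member. The 6 shown are the protein-coding promoters with the 5 highest −log10 q values in the GLI1 list (ties by symbol), outside stretches where control peak numbers skip, and that of Slitrk3, a gene with 3 members. They were chosen after the values were seen. Each is the 250 bases before the start, on the gene's strand, from RefSeq GRCm38.p6 (mm10), with CpG dinucleotides in capitals.
Pde4b, chr4:102569810-102570059, plus strand: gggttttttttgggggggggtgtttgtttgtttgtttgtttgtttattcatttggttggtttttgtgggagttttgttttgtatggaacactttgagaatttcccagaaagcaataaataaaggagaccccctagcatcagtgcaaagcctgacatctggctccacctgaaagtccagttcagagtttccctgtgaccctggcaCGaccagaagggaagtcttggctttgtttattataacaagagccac
Pdgfd, chr9:6168236-6168485, plus strand: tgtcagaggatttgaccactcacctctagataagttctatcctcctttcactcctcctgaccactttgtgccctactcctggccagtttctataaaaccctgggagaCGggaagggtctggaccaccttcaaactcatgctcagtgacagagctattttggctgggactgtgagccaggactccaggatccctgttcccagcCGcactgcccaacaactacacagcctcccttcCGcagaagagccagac
Grm7, chr6:110645262-110645511, plus strand: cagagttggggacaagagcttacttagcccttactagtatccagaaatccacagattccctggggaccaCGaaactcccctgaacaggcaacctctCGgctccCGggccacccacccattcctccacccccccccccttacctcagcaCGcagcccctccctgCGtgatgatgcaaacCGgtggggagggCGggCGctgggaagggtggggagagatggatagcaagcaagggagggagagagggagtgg
Nkx2-9, chr12:56613285-56613534, minus strand: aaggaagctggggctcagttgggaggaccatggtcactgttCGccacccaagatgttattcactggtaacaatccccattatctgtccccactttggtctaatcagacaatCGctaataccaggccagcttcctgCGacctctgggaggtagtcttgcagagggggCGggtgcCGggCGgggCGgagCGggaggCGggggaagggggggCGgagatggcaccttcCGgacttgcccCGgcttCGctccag
Sbk2, chr7:4964407-4964656, minus strand: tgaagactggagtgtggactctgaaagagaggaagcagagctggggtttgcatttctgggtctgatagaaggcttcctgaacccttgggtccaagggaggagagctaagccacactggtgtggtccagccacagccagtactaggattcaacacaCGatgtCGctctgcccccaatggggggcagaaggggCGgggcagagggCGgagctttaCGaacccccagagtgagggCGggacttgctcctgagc
Slitrk3, chr3:73057067-73057316, minus strand: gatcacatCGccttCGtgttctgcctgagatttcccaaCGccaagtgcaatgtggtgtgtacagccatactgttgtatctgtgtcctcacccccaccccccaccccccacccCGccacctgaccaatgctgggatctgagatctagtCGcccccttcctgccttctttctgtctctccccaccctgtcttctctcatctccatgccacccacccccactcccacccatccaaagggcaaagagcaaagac

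Pde4b encodes a phosphodiesterase that breaks down cyclic AMP, and its member had a fold of 20.9 in the GLI1 list over background and 5.28 in the D5 list. The printed stretch holds 1 CpG. Pdgfd encodes a ligand of platelet-derived growth factor receptors, had folds of 12.6 with GLI1 and 7.52 at D5, and holds 3 CpG. Grm7, a metabotropic glutamate receptor gene of neurons, had folds of 9.83 and 7.55 and holds 8 CpG. Nkx2-9, a homeobox gene of the ventral neural tube, had folds of 9.13 and 3.61 and holds the most CpG of the 6, at 13. Sbk2, a kinase gene, had folds of 9.13 and 7.70 and holds 6 CpG. Slitrk3, which encodes a synaptic adhesion protein, had folds of 5.27 and 5.08 and holds 5 CpG.

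One member, at chr3:118433624-118433909, overlapped the hairpin of miR-137, a microRNA known for its roles in neurons. Its fold was low in both lists, 2.81 with GLI1 and 3.51 at D5. The mature sequences are shown with the seed, bases 2 to 8, in capitals.
mmu-miR-137-3p: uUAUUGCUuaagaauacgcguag
mmu-miR-137-5p: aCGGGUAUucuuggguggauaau

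The members were mostly small regions of moderate fold. Their median fold in the GLI1 list was 4.39, with the middle 50% between 3.69 and 5.44 and a range of 2.46 to 53.0. The opposite class had a median of 4.14 in the control list and a range of 2.52 to 18.5. Folds are the values the authors gave each peak, as enrichment over the background of its list. Regions in all 3 lists reached a median of 19.7 in the GLI1 list. The median width was 279 bp for members, 278 bp for the opposite class and 1071 bp for regions in all 3 lists. At D5 both one-sided classes were alike, with median folds in the D5 list of 5.36 and 5.35, against 8.30 for regions in all 3 lists.

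Within the GLI1 list, a fold of at least 10 was reached by 84 members (3.81%) and by 3.85% of the regions in that list only, and a fold of at least 20 by 23 members (1.04%) and by 0.516%. Within the control list, 19 regions of the opposite class (1.78%) and 2.78% of the regions in that list only reached 10, and 0 and 0.118% reached 20. A fold at or above 2 times the minimum in the opposing D7 list was reached by 726 members (33.0%) and by 289 of the opposite class (27.0%). The same threshold was reached by 54.6% of the whole GLI1 list and 59.1% of the whole control list. The 2 D7 lists had lowest folds of 2.46 and 2.52, and 20 members lay below the lowest control fold.

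**Figure D1:**
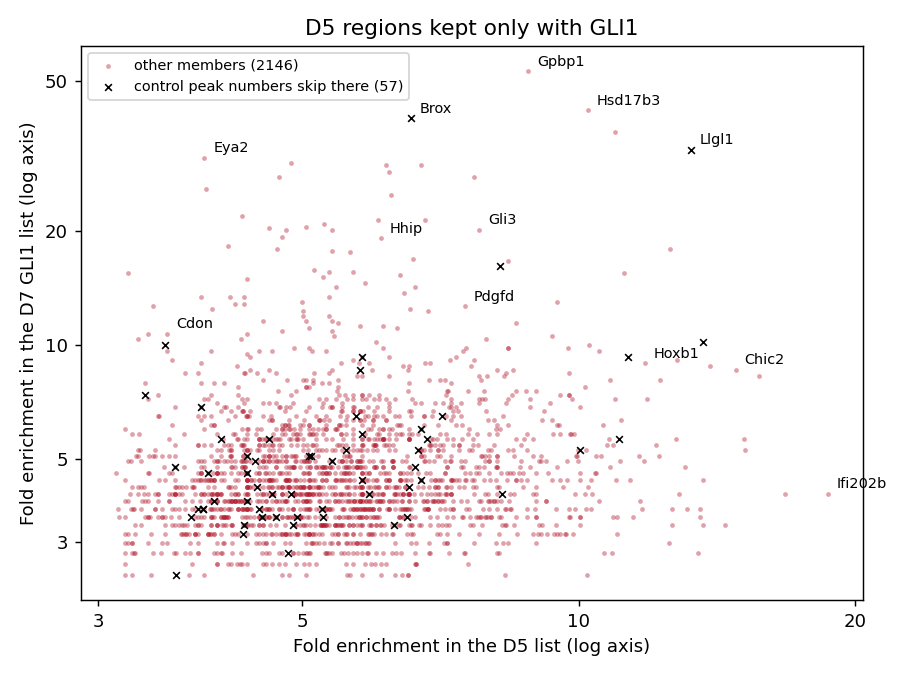
Each of the 2203 members is plotted by the fold of its D5 region (x axis) and its own fold in the D7 GLI1 list (y axis), both on log axes and each over its own list's background. Most members lie between 3 and 10 on both axes, and the highest GLI1 folds, up to 53.0 near Gpbp1, go with D5 folds of 3.91 to 13.2; crosses mark the 57 members in stretches where control peak numbers skip.

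The 12 members with the highest −log10 q in the GLI1 list were 756 to 1776 bp wide, and 10 of them lay away from starts. The first, at chr13:111396847-111398497, had a GLI1 fold of 53.0 and a D5 fold of 8.82 and lay 27.9 kb from Gpbp1, a transcription factor gene. The nearest control region was 63.0 kb away. A member 55.0 kb from Hsd17b3, which encodes an enzyme of testosterone synthesis, had a GLI1 fold of 41.8 and a D5 fold of 10.2. Inside gene intervals, Eya2, a transcriptional coactivator gene, had a GLI1 fold of 31.2, Ston1, an endocytic adaptor gene, 30.2, and Fgfr2, a fibroblast growth factor receptor, 27.7. The D5 regions under these 3 were weak, with −log10 q values of 2.29, 4.16 and 3.56, so they are not members when a −log10 q of at least 5 is asked of presence.

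Glp2r, the receptor of glucagon-like peptide 2, held a member with a GLI1 fold of 28.6 and a D5 fold of 6.22. Members near 1700122O11Rik and Mtcl1, a microtubule cross-linking gene, had GLI1 folds of 29.8 and 27.7. The remaining 2 lay over 100 kb from any protein-coding gene, at chr12:27786568-27787648 (GLI1 fold 36.5, D5 fold 11.0) and chr9:87504574-87506014 (29.8 and 6.17). The others of the 12, at the starts of Brox and Llgl1, had GLI1 folds of 39.8 and 32.8. At both, the numbering of control peaks skips, so a control peak may have been called and then removed, and their absence from control cannot be settled. Such stretches held 57 of the 2203 members (2.59%) and 26 of the opposite class (2.43%).

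Ranked instead by the D5 list, the strongest members were other regions, with modest folds at D7. The first lay in Ifi202b, an interferon-inducible gene, with a D5 fold of 18.7 and a GLI1 fold of 4.04. Next were regions 99.2 kb from Chic2 (14.8 at D5 and 8.60 with GLI1), at the start of Rasgrp3, a Ras exchange factor gene (14.5 and 3.34), and at chr1:7777245-7777494 with no gene within 100 kb (15.1 and 5.62). Llgl1 is in both rankings, with a D5 fold of 13.2. Hoxb1, a homeobox gene of the hindbrain and posterior second heart field, had a member 28.9 kb away with 11.8 at D5 and 8.95 with GLI1. Regions near Cetn3, a centrin gene (16.8 and 4.04), and in Zfp939 (15.7 and 8.25) completed the 8. Only Llgl1 was among the top members of both lists.

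Seen from D5, 19184 of 38281 D5 regions had no D7 control region, and 2408 of these (12.6%, Wilson 95% interval 12.1 to 13.0) overlapped a GLI1-list region. In the other direction 1155 of 17931 D5 regions missing with GLI1 (6.44%, 6.09 to 6.81) overlapped a control region. These intervals, and those below, cover counting error only and not differences between cultures. The ratio of members to the opposite class was 2.06 (1.92 to 2.22), and 1.68 when the D7 lists were shortened to equal numbers of peaks. By chromosome it ran from 1.40 on chromosome 11 to 2.67 on chromosome 7, in the same pooled lists, so these values are not independent of each other. Of GLI1-list regions without a control region, 13.3% overlapped a D5 region, and of control-list regions without a GLI1 region, 8.83% did.

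The share kept varied with D5 strength. With GLI1 it was highest at D5 folds of 6 to 8, at 14.1% (13.0 to 15.3), and lowest at 10 or more, at 9.82% (7.94 to 12.1). In control it ran from 5.88% to 8.21%. The ratio of regions kept was 2.35 at D5 folds of 5 to 6 and 1.22 at 10 or more, where the control share was 8.21% (6.48 to 10.3) and the intervals overlapped.

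Among D5 regions missing from 1 D7 list, distance from a gene start made a larger difference to the share kept. Of D5 regions within 1 kb of a start and missing from control, 389 of 1429 (27.2%, 24.98 to 29.6) were present with GLI1. Of those missing with GLI1, 114 of 1154 (9.88%, 8.29 to 11.7) were present in control. At greater distances the shares ran from 9.09% to 13.8% with GLI1 and from 4.63% to 7.35% in control. The ratio of regions kept was 3.41 within 1 kb and 1.81 to 2.06 in the other ranges. Most near-start D5 regions were in both D7 lists, at 87.3% of 12163, against 19.3% to 39.6% at greater distances. Over all D5 regions, the share kept only with GLI1 was smaller near starts. It was 389 of 12163 within 1 kb and 404 of 5196 at 1 to 10 kb. Chromosome 18 has no starts in the table used here and is left out of values that use starts.

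Near starts, the share kept with GLI1 was above that kept in control in each range of D5 fold. In each range below 8 both shares were higher near starts than beyond 10 kb. For control at D5 folds of 6 to 8 the intervals overlapped, at 9.19% (5.82 to 14.2) and 7.29% (6.34 to 8.37). With D5 folds of 4 to 5, for example, 31.7% of near-start regions were kept with GLI1 and 11.9% in control, while beyond 10 kb the shares were 10.3% and 5.40%. At D5 folds of at least 8 the near-start shares were 11.95% and 2.64%, and those beyond 10 kb were 11.6% and 8.67%. Stretches with skipped peak numbers were common here: they held 320 of the 1429 near-start regions missing from control, of which 12 were present with GLI1, and 309 of the 1154 missing with GLI1. Outside such stretches the near-start shares were 34.0% (31.3 to 36.8) and 13.0% (10.9 to 15.5), a ratio of regions kept of 3.43.

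**Figure D2:**
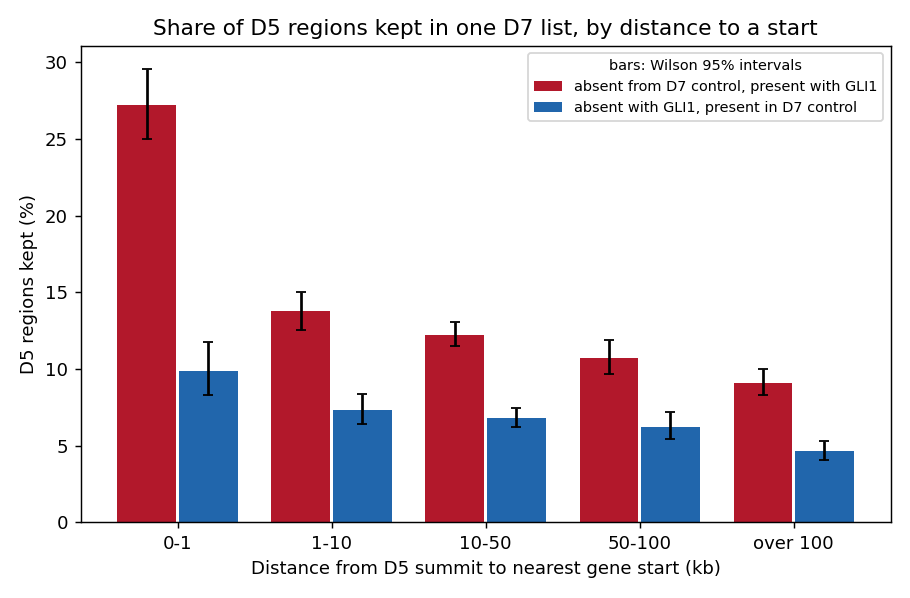
Of D5 regions missing from 1 D7 list, bars give the percent present in the other, with Wilson 95% intervals. The x axis is the distance from the D5 summit to the nearest start in kb. The red bar at 0-1 kb, 27.2%, stands above all others, and the blue bar there is 9.88%.

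Members themselves lay within 1 kb of a start in 301 of 2134 cases (14.1%, 12.7 to 15.6), against 8.88% (7.30 to 10.8) of the opposite class. The share was 8.06% of regions in the GLI1 list only and 6.43% (6.06 to 6.82) of regions in the D5 list only. It was 14.6% (13.9 to 15.4) of regions in both D7 lists and not at D5, and 60.4% of regions in all 3 lists. The 5 near-start members with the highest −log10 q were those of Brox and Llgl1, 1 at a start of Gm51633 with Igfbp5, an insulin-like growth factor binding protein gene, as the nearest coding gene (GLI1 fold 21.4), and those of Pde4b and Pdgfd. Gene intervals contained 48.6% of member summits. No exon or intron is stated, because the annotation used here gives whole genes.

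The 179 starts inside members belonged to 179 genes, 131 of them protein-coding. In the 300 bases around the start, from 250 before to 50 after, the observed to expected CpG ratio had a median of 0.524. The median was 0.801 over 11096 promoters in regions of all 3 lists, 0.576 over 496 in D5-only regions, 0.435 over 54 of the opposite class, 0.387 over 243 in GLI1-only regions and 0.383 over all 29343 promoters. A ratio of at least 0.6 was reached by 39.1% (32.3 to 46.4) of member promoters, 80.3% of those in all 3 lists, 48.6% of those in D5-only regions, 35.2% (23.8 to 48.5) of the opposite class, 23.0% of those in GLI1-only regions and 35.9% of all promoters. Member promoters were thus poorer in CpG than those open in all 3 lists, and their interval held the share of all promoters and overlapped that of the opposite class.

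**Figure D3:**
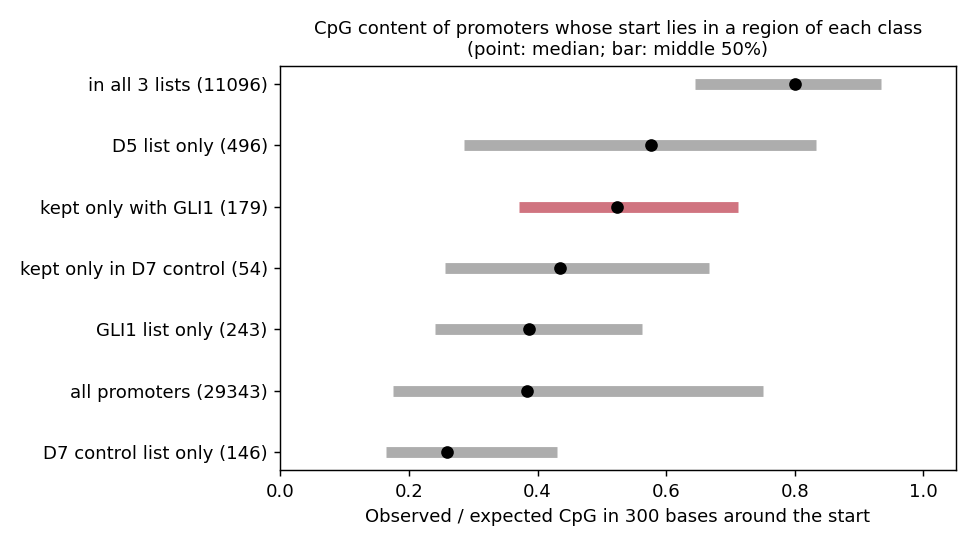
Points are the median and bars the middle 50% of the observed to expected CpG ratio in 300 bases around starts that lie in a region of each class, with the number of promoters in brackets. Promoters in members (red, median 0.524) lie between those of GLI1-only regions (0.387) and of regions in all 3 lists (0.801).

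Short motif words were counted in these 300 bases on both strands. The GLI word GACCACCCA was in 0 of 179 member promoters, which allows a share of up to 1.68% by 3 counts of the total or 2.101% by the Wilson interval. It was in 0.252% of all promoters, too few for a count of 0 to tell the shares apart. The forkhead word TGTTTAC was in 8 (4.47%, 2.28 to 8.57), against 3.599% of all promoters. The GATA word AGATAA was in 19 (10.6%, 6.90 to 16.0), those of Pdgfd and Nkx2-9 among them, against 11.2%. The forkhead and GATA shares lay near those of all promoters, and none of the 3 words contains another. Members away from starts were not searched.

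Summits lay close to the D5 summit, which the overlap asked by the rule and the small widths partly ensure. Where a region overlapped several D5 regions, the D5 summit was that of the D5 region with the highest fold. In 1692 members (76.8%, 74.996 to 78.5) the GLI1 summit was within 100 bp of the D5 summit. The share was 69.0% (66.2 to 71.7) in the opposite class and 78.6% in regions of all 3 lists. The medians were 41, 58 and 37 bp. Among regions 200 to 300 bp wide the shares were 84.9%, 75.4% and 83.1%. At 300 to 500 bp the one-sided classes had 73.2% (69.6 to 76.5) and 68.8% (63.5 to 73.6), and at 500 bp or more 53.3% (47.9 to 58.6) and 45.2% (37.5 to 53.0), so the intervals overlapped at these widths. It was 45.0% (30.7 to 60.2) among the 40 members with a fold of at least 15.

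Measured in bases, the limits of the choice were close for few members. By peak strength they were close for most. Of 2203 members, 726 reached 2 times the lowest control fold, and 822 regions remained with a −log10 q of at least 5 for presence. The smallest distance from a member to a control region was 10 bases, 26 members had one within 100 bases and 184 within 1 kb, and the median was 22.1 kb. Just outside, the smallest overlap that kept a region from membership was 2 bases. The smallest overlap with D5 among members was 1 base, 12 members overlapped D5 by at most 10 bases, and 22 lay on D5 regions that all also overlapped a control region.

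By nearest protein-coding gene within 100 kb of the summit, which need not be the gene a region acts on, members fell to 1637 genes, and 318 members had none. Most genes had 1 member (1425), 183 had 2, 22 had 3 and 7 had 4. Regions of the opposite class fell to 814 genes, 187 of them shared.

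The 10 genes with the largest excess of members had 3 or 4 each and, as the ranking favours, 0 regions of the opposite class. Nkx2-2, a homeobox gene of ventral neural progenitors and a classical Hedgehog target in the neural tube, had 4 members. All 4 D5 regions nearest to it were among them. The member farthest from the gene lay 61.5 kb away, 30 bp from a start of Gm39955. Another, inside the gene interval, lay 46 bp from a start of 6430503K07Rik. Grm5, a metabotropic glutamate receptor gene, had 4 of 7 D5 regions missing from control present with GLI1, with GLI1 folds of 3.16 to 7.02. Slitrk3 had 3 of 5, with folds of 4.91 to 9.65 within 9.50 kb. Egflam, which encodes a matrix protein of photoreceptor synapses, had 3 of 4, with folds of 4.21 to 10.7. Agap1, an Arf regulator, had 3 of 7, and Anks1b, a synaptic scaffold gene, 3 of 12.

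The others span long intervals and had many D5 regions. Grm5, Agap1 and Anks1b, given above, are also long, at 551, 440 and 1100 kb, against 389 kb for Fmn1. Gpc5, a glypican gene of 1433 kb, had 4 of 20, with folds from 4.39 to 12.5. Macrod2, an ADP-ribose hydrolase gene, had 4 of 35, Nav3, a neuron navigator gene, 4 of 15, and Fmn1, a formin gene of limb development, 3 of 11 with 4 members. The shares of Gpc5 and Macrod2 lie nearer the 12.6% of all D5 regions than that of Nkx2-2 does.

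Of all windows of 100 kb, that of Nkx2-2 held the most members, 4 between summits at chr2:147187378-147256886. In the GLI1 list their folds were 4.21, 5.09, 4.21 and 4.56, and the D5 regions had 4.38, 4.56, 3.81 and 4.26. These were weak peaks, with D5 −log10 q values from 2.46 to 3.94, and none counts as present at a −log10 q of at least 5. A control region lay within 1 kb of 1 of them. Regions at the other end of Nkx2-2 were in both D7 lists and not at D5. A further member, nearest to Pax1, a somite gene, lay 121 kb from the first, with folds of 6.85 with GLI1 and 10.03 at D5.

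**Figure D4:**
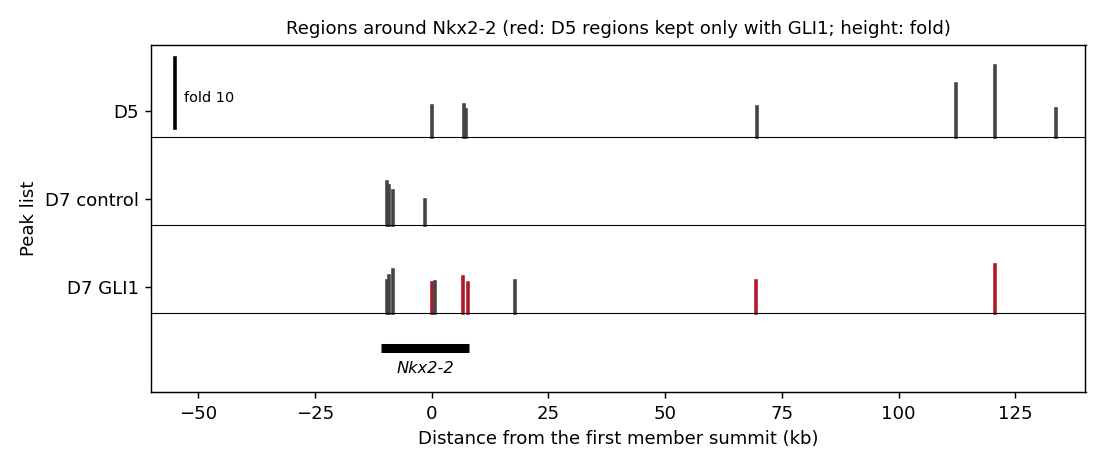
The map shows regions of the 3 lists around Nkx2-2 as lines at their summits, in kb from the first member summit, with height proportional to the fold within each list and a scale line of fold 10. Of the 10 GLI1-list regions shown, 5 are members (red), and none of the 4 control regions overlaps them.

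The next windows held 3 members each. They lay near Sema3e, a semaphorin gene (GLI1 folds of 3.86 to 11.9), Slitrk3, Scrt2 and Srxn1 (3.34 to 12.6; Scrt2 is a neural repressor gene) and Egflam. In all 5 windows the opposite class had 0 regions. That class held 1069 regions on chromosomes 1 to 19, and windows were ranked by members, so a count of 0 says little. Some D5 regions in these windows were also in control, 4 of 6 near Scrt2 and Srxn1 and 1 of 8 near Sema3e.

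Hedgehog pathway genes had 6 members and 3 regions of the opposite class over 26 genes. As shares of their D5 regions, 6 of 37 missing from control were present with GLI1 (16.2%, 7.65 to 31.1) and 6 of 37 missing with GLI1 were present in control, the same share. Over all D5 regions the shares were 12.6% and 6.44%, and the first lies inside the list's interval while the second lies below it. Hhat, the enzyme that adds palmitate to Hedgehog ligands, had 2 members with GLI1 folds of 5.09 and 4.39 and 1 region of the opposite class, and the first lies where control peak numbers skip. Hhatl, a relative of Hhat, had a member 280 bp from its start with a fold of 8.07, over its only D5 region. Hhip, a membrane protein that binds and sequesters the ligands, had 1 member inside the gene with a GLI1 fold of 19.1 and a D5 fold of 6.09, beside 1 region of the opposite class and 7 in the GLI1 list only. Cdon, a co-receptor, had 1 member 61.6 kb away with 10.7 with GLI1 and 3.57 at D5, and 1 of the opposite class. Gli3, the main repressor among GLI factors, had 1 member inside the gene at chr13:15602522-15603588 with 20.2 and 7.79. The median fold of the 6 was 9.39, against 4.39 over all members.

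Neural progenitor genes had the highest share. Of their D5 regions missing from control, 17 of 53 were present with GLI1 (32.1%, 21.1 to 45.5), against 12.6% of all D5 regions, and 6 of 42 missing with GLI1 were present in control (14.3%, 6.72 to 27.8), against 6.44%. Without Nkx2-2 the first share was 13 of 49 (26.5%, 16.2 to 40.3). Of 33 genes 10 had members, 15 in all, and 7 had regions of the opposite class. Zic1, a zinc finger gene of the dorsal neural tube, had 2 members, 1 of them 436 bp from its start (GLI1 folds 4.21 and 5.62, D5 folds 3.74 and 4.25). Msx1, a homeobox gene of dorsal neural and mesenchymal cells, had 2, with 4.39 and 5.27. The net count of Msx1 was 2 in the whole lists and -1 when peaks below a −log10 q of 5 were dropped. The median GLI1 fold of the list was 4.39, equal to that of all members.

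Forkhead genes had 13 of 60 such D5 regions present with GLI1 (21.7%, 13.1 to 33.6) and 3 of 50 in control (6%, 2.06 to 16.2), against 12.6% and 6.44% of all D5 regions. Of 40 genes 11 had members. Foxa2, a factor of endoderm and floor plate, had 2 members, with GLI1 folds of 5.44 and 3.51, and the first lay 2.298 kb from the gene. Foxq1 had 1 with a GLI1 fold of 13.0 and a D5 fold of 4.998, and 1 region of the opposite class. Foxf2, a gene of gut and heart mesenchyme, had 1 at 7.11 kb with 9.65 and 4.49.

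Endothelial and blood genes had 9 of 40 present with GLI1 (22.5%, 12.3 to 37.5) and 2 of 33 in control (6.06%, 1.68 to 19.6), and both intervals include the shares of all D5 regions, 12.6% and 6.44%. Cdh5, which encodes VE-cadherin, was the nearest gene to 3 of the 7 members, with GLI1 folds of 3.51 to 5.62. They lay outside it, at 50.5, 24.5 and 1.98 kb. Without Cdh5 the share was 6 of 35 (17.1%). Flt1, a VEGF receptor gene, and Esam, an endothelial adhesion gene, had 1 each (5.27 and 4.39). Genes of Wnt, FGF and BMP ligands had 15 of 70 (21.4%, 13.4 to 32.4) and 8 of 63 (12.7%, 6.58 to 23.1), each above the share of all D5 regions with the lower bound close to it. Wnt11, a ligand of outflow tract development, had a member 37.1 kb away with 12.5 with GLI1 and 3.99 at D5. Fgf20 had 2 (4.39 and 5.62), and Wnt7a 1 (4.74).

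In lists of the heart the intervals included the 12.6% of all D5 regions. Second heart field genes had 6 members and 8 regions of the opposite class, with 9 of 60 (15%, 8.10 to 26.1) and 6 of 57 (10.5%, 4.91 to 21.1) of their D5 regions kept. Their members included Wnt11, Foxf2 and Hoxb1, described above. Cardiac transcription factor genes had 7 members and 4 of the opposite class, with 12 of 94 (12.8%) and 4 of 86 (4.65%) kept, and their net count went from 3 to -1 with D7 lists of equal length. Meis1 had 2 members (GLI1 folds 2.98 and 4.56), Hand2, a ventricular factor gene, 1 at 9.44 kb (8.60), and Tead1, a Hippo pathway factor gene, 1 (6.14). Contractile and calcium handling genes had 2 members and 5 regions of the opposite class. The member near Ryr2, the calcium release channel gene of heart muscle, had a GLI1 fold of 5.27. The shares were 2 of 44 (4.55%, 1.26 to 15.1) and 5 of 47 (10.6%, 4.63 to 22.6), and these intervals overlap.

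The other lists had few members. The shares of all D5 regions, 12.6% with GLI1 and 6.44% in control, lay inside the interval of each of these lists. Endoderm genes had 7 of 39 (17.9%) present with GLI1 and 2 of 34 in control, with Foxa2, Foxa3 (GLI1 fold 3.51) and Sox17 (3.34) among them. Paraxial mesoderm genes had 7 of 33 and 4 of 30, with members of Pax7 (7.02), Pax1 and Uncx (4.56); Pax7 and Pax1 also had 1 region each of the opposite class. Pluripotency genes had 5 of 35 and 4 of 34, with 2 members near Nr5a2 (5.27 and 3.51), 1 in Tet1 (4.04) and 1 in Lin28b (3.34). Primitive streak genes had 5 of 47 and 4 of 46, with members of Snai1 (4.56), Mixl1 (3.86) and Lef1 (3.69). Smooth muscle, epicardial and fibroblast genes had 2 of 27 and 4 of 29. Their members were those of Col3a1, a fibrillar collagen gene (GLI1 fold 13.3), and Myh11 (3.51). The Col3a1 member overlapped its D5 region by 23 bases and was lost with an overlap of 50% of the shorter region. Myh11 also had 1 region of the opposite class, and its member lies where control peak numbers skip. Housekeeping genes had 0 of 7, with an interval of 0 to 35.4%, and 1 of 8.

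**Figure D5:**
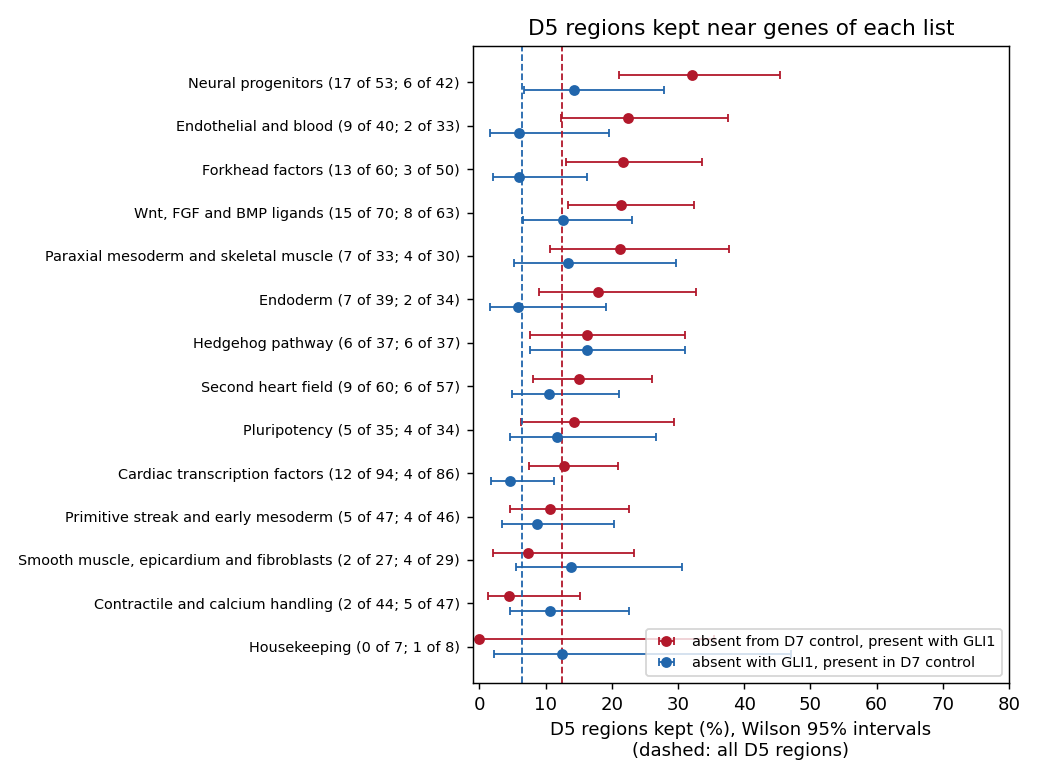
Points give the percent of D5 regions near genes of each list that were kept, with Wilson 95% intervals, and the counts stand beside the names. The interval of the neural list with GLI1, 21.1 to 45.5, lies above the 12.6% of all D5 regions (red dashed line). Those of the forkhead and ligand lists with GLI1 do too, and all others include it. In control, the intervals of the Hedgehog, neural and ligand lists lie above the 6.44% of all D5 regions (blue dashed line). Their lower bounds there are 7.65, 6.72 and 6.58.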

How the data were processed

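The authors deposited 1 peak list per group. Per the submitters' processing notes, Bowtie2 2.3.2, SAMtools 1.5, Picard and MACS2 2.1.1 were used with mm10; which step removed numbered peaks is not given in the sources used here. For every peak the authors deposited a fold enrichment (a ratio over background), a −log10 q, a score and the offset of the summit in bases. Read depth was not used here, and the pooled lists allow no comparison of replicates; whether libraries came from separate cultures is not stated.

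Overlapping peaks were merged with Python 3.11.15 and pandas 2.3.3, taking values from the sub-peak with the highest fold, and classes were set by overlaps of at least 1 base. No test between conditions was run; shares carry Wilson 95% intervals from counts. Summits were assigned to 1 of 20665 protein-coding genes, the nearest within 100 kb, and to 31396 starts of the RefSeq GRCm38.p6 tables; promoters overlapping on a strand were counted once, leaving 29343. The overlap and merging steps were tested on simulated intervals.

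Named genes followed a rule: the 12 members with the highest −log10 q in the GLI1 list, the 8 highest in the D5 list, the 10 genes with the largest excess of members, every Hedgehog gene with a member, up to 3 genes per list, 5 members near starts and 5 windows. The members and the 14 gene lists, which share genes, were chosen with earlier results of these data known. Alternatives were stricter −log10 q, list length, overlap, margin, merging, fold and distance settings. Stretches with skipped peak numbers and the near-start shares were added after seeing the data.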

Additional observations from a re-analysis of the deposited data

Results flagged for a closer look

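The sex chromosomes lie outside the comparisons above. Under the same rule, 55 of their regions were in the D5 and GLI1 lists and missing from D7 control, against 29 in the D5 and D7 control lists and missing with GLI1, a ratio of 1.90. They held 1155 D5 regions. This count is given because it stands above that in the control list, and it has no replicate check.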

How the results depend on the processing

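Each group has 1 pooled list, so no library could be left out, and read depth, which limits what can be called missing, was not known. No paired analysis was possible because the lists pool the libraries of a group. The excess of members over the opposite class, and of near-start regions kept with GLI1 over those kept in control, had the same direction under all alternatives run, while sizes moved. The number of members was 1051 with a −log10 q of at least 5 in all lists, 822 with it for presence only and 726 with the fold threshold. In the same order, the percent of D5 regions missing from control that were present with GLI1 was 13.2%, 10.9% and 4.58%, and the ratio of the classes was 2.28, 2.54 and 2.51. With D7 lists of equal length the percent was 11.6% and the ratio 1.68. The percent was 11.7% with an overlap of 50% of the shorter region and 11.3% with no region of the other D7 list within 1 kb. The percent of members near a start was 18.4% with a −log10 q of at least 5 in all lists, 16.5% within 2 kb and 10.3% for starts of protein-coding genes. The percent with summits within 100 bp of the D5 summit was 82.1% with that −log10 q in all lists, 83.3% with it for presence only, 81.2% with the 50% overlap, 70.6% without merging and 78.7% with the fold threshold; within 50 bp it was 56.8% and within 200 bp 90.6%. Near starts, the percent kept with GLI1 and in control was 18.6% and 4.197% with the −log10 q for presence only, 24.4% and 8.23% with the 50% overlap, 22.4% and 7.53% with the 1 kb margin, 11.2% and 2.95% with the fold threshold, and 34.0% and 13.0% outside stretches with skipped numbers. It was 6.46% in control with the −log10 q in all lists, and with GLI1 24.7% within 2 kb and 30.0% for coding starts. The cause of these shifts was not tested, beyond the fewer regions that stricter settings leave. The net count (members minus the opposite class) became -1 at a −log10 q of at least 5 for Hhat, Msx1, the primitive streak list and the endoderm list, and -1 with D7 lists of equal length for cardiac transcription factors. Of 101 named members, 57 were lost at that −log10 q and 43 with the fold threshold; the other settings lost at most 5.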

Other observations

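Further windows of 100 kb with 3 members were noticed after their values were seen. They held 0 regions of the opposite class, which says little for a class so sparse. Zic1 and Zic4, neighbouring zinc finger genes of the dorsal neural tube, had 3 members within 3.99 kb, with folds of 4.21 to 7.20 in the GLI1 list. A window around Vip, a neuropeptide gene, and Myct1 held 3 with folds of 4.91 to 9.13. One near Irf8, a transcription factor gene of myeloid cells, held 3 with folds of 2.81 to 8.78, and 1 over the guanylate-binding protein genes Gbp4, Gbp8 and Gbp9 held 3 with folds of 4.04 to 8.43. On chromosome 8, 3 members with folds of 5.09 to 8.25 lay between summits at chr8:30840338-30923931, with no protein-coding gene within 100 kb. Over windows that do not overlap, 1662 held 1 member, 221 held 2, 31 held 3 and 1 held 4.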
